A study of Homo sapiens with 14 samples.

Results

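Oxidative phosphorylation is carried out by 5 multi-subunit complexes of the inner mitochondrial membrane, and the genes described here are those of their subunits that lie in the nuclear genome. They were taken by symbol: names beginning NDUF followed by A, B, C, S or V and a digit for complex I, the SDH genes A to D for complex II, names beginning UQCR and CYC1 for complex III, COX4 to COX8 for complex IV and ATP5 for complex V, in the older spelling of human gene symbols. The K562 table held 87 such genes among 23873 named genes, after short-RNA entries were set aside: 38 of complex I, 4 of complex II, 10 of complex III, 17 of complex IV and 18 of complex V. The SIGM5 table held 69 of its 19196 genes, with the same numbers for complexes I to IV. The ATP5 prefix, which older and newer symbols of complex V share, matched 0 genes there, so complex V was not analysed in SIGM5. Antisense entries (3), pseudogenes (2) and readthrough loci (2) that match the names were left out. Genes were sorted by symbol, so NDUFA4, which carries a complex I name but whose protein sits in complex IV, was counted with its prefix, as were COX7A2L, a factor that joins complexes III and IV, and ATP5S and ATP5SL, which are related by name.

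The chain works as a relay. Complex I takes electrons from NADH and complex II from succinate, both pass them through ubiquinone to complex III, cytochrome c carries them on to complex IV, where oxygen is reduced, and the proton gradient built on the way drives the ATP synthase, complex V. Complex II has a catalytic head and membrane anchors. In the other complexes, core subunits bind the redox cofactors or carry out catalysis. Accessory or supernumerary subunits surround these core subunits and are needed for assembly and stability. The remaining core subunits are encoded by mitochondrial DNA, so complexes I, III, IV and V are built from both genomes and complex II from the nuclear genome alone.

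Poly(A)-selected RNA was sequenced in 14 libraries, 2 in each of 7 groups, collected after 24 h of treatment. SIGM5, a myeloid leukaemia line, received 12.5 µM TETi76, named in the series as an inhibitor of the TET dioxygenases, or its vehicle DMSO. K562, an erythroleukaemia line, was used as K01, TET2+/+ by the series text, which received 12.5 µM TETi76, 12.5 µM TETi76 with 100 µM ascorbate, 100 µM ascorbate alone, or DMSO, and as K18, TET2-/-, which received DMSO only. Each TET2 genotype was 1 clone, so genotype and clone cannot be told apart, and TETi76 was given to K01 but not to K18. The labels number the replicates without saying that they were separate cultures, so p-values here measure the spread between libraries, which may be technical.

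SIGM5 libraries held between 18893636 and 23639198 counts, and K562 libraries an estimated 4860000 to 9250000 reads, the lowest being TETi76 with ascorbate replicate 1. All 8 erythroid markers were present in K562 (summed 3720 to 9050 FPKM, fragments per kilobase of transcript scaled to library size, per library) and 0 reached 1 CPM, counts scaled to library size, in SIGM5. All 9 myelomonocytic markers were present in SIGM5 (summed 18900 to 22200 CPM per library). Of the 9, 7 also reached 1 FPKM in some K562 library (summed 57.5 to 85.8 FPKM per library). TET2 mRNA was 3.31 and 2.95 FPKM in K18 against 1.99 and 2.40 FPKM in K01 under DMSO (log2 0.37, adjusted p = 0.314); a disrupted gene may still be transcribed, so mRNA level is no check of the genotype. RefSeq lists pseudogenes that share the name of 49 of the 87 genes, and how the reads of such copies were assigned is not given in the sources used here.

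Promoters of 6 subunit genes are shown as examples from complexes I to IV that were called under TETi76, chosen after their values were seen and not in every case the largest change of their complex: 5 fell in K01 cells (NDUFV1 and NDUFS7 of complex I, SDHD of complex II, UQCRC1 of complex III and COX5B of complex IV) and 1, NDUFB4, rose. Each is the RefSeq window of 250 bases before to 50 bases after the gene start on GRCh38.p14, a later build than the hg19 named for the files, printed 5′ to 3′ on the gene's own strand. The windows are NDUFV1 at chr11:67606686-67606985 (plus strand), NDUFS7 at chr19:1383657-1383956 (plus), SDHD at chr11:112086623-112086922 (plus), UQCRC1 at chr3:48609597-48609896 (minus), COX5B at chr2:97645812-97646111 (plus) and NDUFB4 at chr3:120596086-120596385 (plus). Capitals mark matches on either strand to the motif of nuclear respiratory factor 1 (GCGC and TGCGC with 1 base of any kind between them), AANATGGCG, that of YY1, and CCGGAAGT, that of ETS factors such as GABP.
NDUFV1: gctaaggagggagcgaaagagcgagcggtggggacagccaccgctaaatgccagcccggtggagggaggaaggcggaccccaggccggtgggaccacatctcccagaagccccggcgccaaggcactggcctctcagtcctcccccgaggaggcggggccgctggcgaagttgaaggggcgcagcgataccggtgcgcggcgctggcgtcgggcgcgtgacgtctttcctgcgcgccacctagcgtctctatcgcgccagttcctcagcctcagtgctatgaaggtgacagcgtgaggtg
NDUFS7: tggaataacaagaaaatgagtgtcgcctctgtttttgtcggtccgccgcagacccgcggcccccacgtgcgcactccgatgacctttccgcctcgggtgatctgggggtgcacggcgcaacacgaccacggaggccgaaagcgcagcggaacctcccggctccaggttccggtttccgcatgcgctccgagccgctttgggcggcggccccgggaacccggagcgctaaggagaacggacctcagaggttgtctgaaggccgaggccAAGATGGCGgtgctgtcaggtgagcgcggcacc
SDHD: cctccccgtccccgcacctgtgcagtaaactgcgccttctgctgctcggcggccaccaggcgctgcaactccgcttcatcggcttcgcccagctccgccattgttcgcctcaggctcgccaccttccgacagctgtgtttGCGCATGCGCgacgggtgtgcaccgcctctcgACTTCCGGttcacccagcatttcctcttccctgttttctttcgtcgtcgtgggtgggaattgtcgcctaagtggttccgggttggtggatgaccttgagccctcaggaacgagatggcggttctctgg
UQCRC1: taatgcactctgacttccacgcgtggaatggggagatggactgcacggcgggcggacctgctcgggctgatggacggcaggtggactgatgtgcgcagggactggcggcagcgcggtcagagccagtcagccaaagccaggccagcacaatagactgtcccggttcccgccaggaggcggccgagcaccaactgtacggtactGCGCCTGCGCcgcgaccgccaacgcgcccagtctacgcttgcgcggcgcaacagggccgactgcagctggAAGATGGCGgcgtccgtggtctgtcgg
COX5B: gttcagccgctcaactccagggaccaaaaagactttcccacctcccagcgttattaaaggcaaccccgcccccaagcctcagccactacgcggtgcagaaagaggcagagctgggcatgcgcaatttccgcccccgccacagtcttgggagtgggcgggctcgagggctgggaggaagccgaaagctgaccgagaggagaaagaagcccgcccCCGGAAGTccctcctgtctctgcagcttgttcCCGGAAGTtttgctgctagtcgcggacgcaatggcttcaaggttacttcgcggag
NDUFB4: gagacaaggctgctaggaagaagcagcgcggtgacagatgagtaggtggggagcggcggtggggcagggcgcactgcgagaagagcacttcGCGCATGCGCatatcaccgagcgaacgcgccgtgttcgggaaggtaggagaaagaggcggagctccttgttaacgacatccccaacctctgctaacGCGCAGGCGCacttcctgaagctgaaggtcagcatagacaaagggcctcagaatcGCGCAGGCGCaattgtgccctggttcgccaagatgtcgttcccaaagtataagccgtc

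The respiratory-factor motif lay in 22.4% of the 67 subunit promoters found in the RefSeq table, against 5.78% of all 35116 promoters. YY1 letters were in 23.9% against 3.19%, and the ETS letters in 13.4% against 4.14%. The 35116 promoters were not limited to the genes tested here and not matched to the 67 in expression or base composition. The part of these in the shares was not tested, so the shares do not show motifs particular to subunit genes. Among the 23 matched genes that fell under TETi76 both with and without ascorbate, 5 held the first motif, 7 the YY1 motif and 3 the ETS motif, and among the other 44 the numbers were 10, 9 and 6. TGACNNNGC, the core of the antioxidant response element, was in 2 of the 23 and 8 of the 44, and 13.3% of all promoters. A match describes these letters in this window and not a bound site.

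In K01 cells TETi76 lowered the transcripts of 32 of 82 tested subunit genes and raised 3, with a median log2 change of -0.14 over the 82 against -0.01 over all genes tested. Among the subunit genes 39.0% were lower and 3.66% higher, and among all 12534 genes tested 13.7% were lower and 9.61% higher, 23.3% in all (limma, Benjamini-Hochberg adjusted p under 0.05). An unadjusted p under 0.05 was seen for 44 of the 82, against 36.0% of all genes, and both treated libraries lay below both DMSO libraries for 46, against 33.0%. The summed level of all 87 genes was 15642 and 16366 FPKM in the TETi76 libraries and 17504 and 18204 FPKM in the DMSO libraries, a ratio of 0.896. By complex the ratio of summed FPKM was 0.921 for complex I, 0.785 for II, 0.895 for III, 0.948 for IV and 0.835 for V. The 4 stromal or epithelial markers summed to 569 and 556 FPKM under TETi76 and 238 and 237 under DMSO, a difference that lay in KRT8 (527 and 517 against 196 and 186), since EPCAM had 41.4 and 38 FPKM against 41.7 and 49.4, PECAM1 0.745 and 1.2 against 1.07 and 1.38, and COL1A1 under 1 FPKM throughout. The 9 myelomonocytic markers summed to 85.8 and 77.4 FPKM against 68.7 and 59.5, and the 8 erythroid markers to 7190 and 7500 FPKM against 7320 and 8540. The part of these markers in the subunit values was not tested. In bulk RNA, fewer cells of a type and less RNA per cell cannot be told apart. With quantile normalization the split was 25 lower and 6 higher in place of 32 and 3.

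Complex I contributed 12 lower and 3 higher genes of 38 (median -0.09). NDUFV1, the flavoprotein that accepts electrons from NADH, had 75.3 and 71.4 FPKM under TETi76 and 173 and 163 FPKM under DMSO (log2 -1.18, SE 0.06, adjusted p = 3.26e-06). NDUFS7, an iron-sulfur subunit near the ubiquinone site, had 71.9 and 79.7 FPKM under TETi76 and 153 and 148 under DMSO (log2 -0.99, SE 0.12, adjusted p = 0.000484). The groups did not overlap for either gene, and the fold change was 0.44 for NDUFV1 and 0.505 for NDUFS7 on the log2(FPKM + 1) scale. NDUFS8, another iron-sulfur subunit, fell by 0.76 on the log2 scale (SE 0.11), NDUFS1, the largest core subunit, by 0.75 (SE 0.13) and NDUFS3 by 0.47 (SE 0.07). NDUFV2, the neighbour of NDUFV1 in the NADH-oxidising module, did not pass (log2 -0.08, adjusted p = 0.452). The core median was -0.75 with 5 of 7 lower, beside -0.05 with 7 lower and 3 higher of 29 accessory subunits.

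Among complex I accessory subunits NDUFA7 (log2 -0.66, SE 0.18) and NDUFA11 (log2 -0.65, SE 0.08) fell most. The 3 that rose were NDUFA3 (172 and 193 FPKM under TETi76, 140 and 128 under DMSO, log2 0.44, SE 0.11), NDUFB4 (218 and 233 FPKM against 167 and 186, log2 0.35, SE 0.08) and NDUFS5 (544 and 513 FPKM against 455 and 461, log2 0.21, SE 0.05). All 3 had treated libraries above both DMSO libraries. NDUFA3 lost its call without DMSO replicate 2 (adjusted p = 0.116) or TETi76 replicate 2 (0.121), NDUFB4 without DMSO replicate 1 (0.0965) or TETi76 replicate 2 (0.0864), and NDUFS5 without DMSO replicate 1 (0.0602) or TETi76 replicate 1 (0.0895). NDUFS5 was also the most abundant complex I transcript in K562 and NDUFB9 the next, at 423 and 433 FPKM under TETi76 and 427 and 417 FPKM under DMSO (log2 0.02, adjusted p = 0.858). NDUFA4 was at log2 -0.08 (adjusted p = 0.552). Its paralog NDUFA4L2, known as a hypoxia-induced form, stayed at or under 2.28 FPKM in every K562 library.

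**Figure D1:**
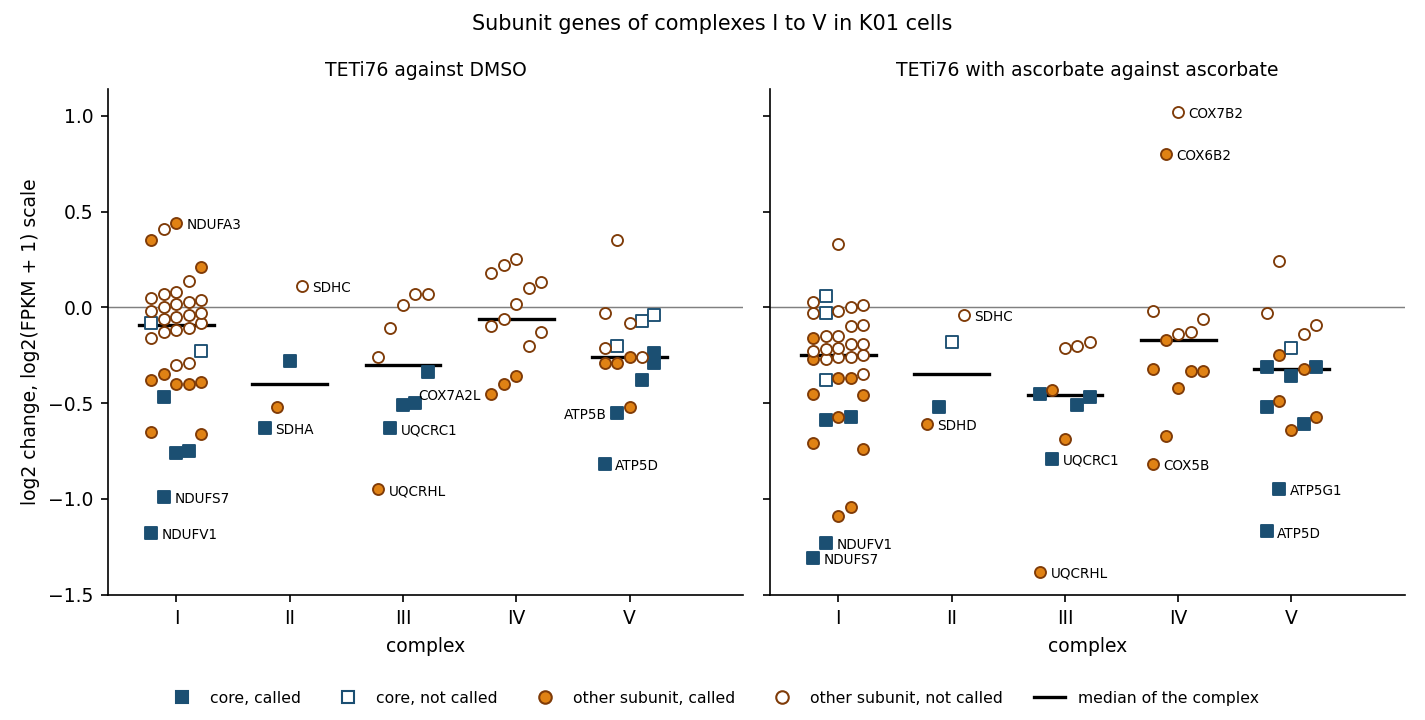
Log2 change of each tested subunit gene in K01 cells by complex, for TETi76 against DMSO (left) and TETi76 with ascorbate against ascorbate (right), on the log2(FPKM + 1) scale; squares are core subunits, circles the others, filled symbols passed an adjusted p of 0.05 and bars are medians. NDUFV1 (-1.18) and NDUFS7 (-0.99) are the lowest points of complex I on the left, and the complex I median lies lower on the right (-0.25) than on the left (-0.09).

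Complex II, the succinate dehydrogenase that also serves the citric acid cycle, had 3 of its 4 genes lower (median -0.40). SDHA, the flavoprotein that oxidises succinate, had 38 and 32.1 FPKM under TETi76 and 52.5 and 56.8 FPKM under DMSO (log2 -0.63, SE 0.09, adjusted p = 0.0016). SDHD, a membrane anchor, had 67.2 and 68.8 FPKM under TETi76 and 101 and 95 under DMSO (log2 -0.52, SE 0.09, adjusted p = 0.00348). SDHB, the iron-sulfur subunit, fell less (140 and 129 FPKM against 156 and 171, log2 -0.28, SE 0.07) and lost its call under quantile normalization (log2 -0.16, adjusted p = 0.133) and without DMSO replicate 2 (0.1) or TETi76 replicate 2 (0.0973). SDHC, the other anchor, overlapped between groups at 38.5 and 41.3 FPKM under TETi76 and 35.5 and 38.5 under DMSO (log2 0.11, adjusted p = 0.44). Whether the 2 anchors differed in their response was not tested.

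Complex III had 5 of 10 genes lower (median -0.30), including all 4 of its electron carriers and core proteins. UQCRC1, a core protein, had 73.6 and 81.2 FPKM under TETi76 and 118 and 122 under DMSO (log2 -0.63, SE 0.08, adjusted p = 0.000575). UQCRC2, its partner, fell by 0.51 (SE 0.09), CYC1, cytochrome c1, by 0.50 (SE 0.06) and UQCRFS1, the Rieske iron-sulfur protein, by 0.34 (SE 0.08) on the log2 scale. UQCRH, the hinge protein and most abundant member of the complex, had 853 and 910 FPKM under TETi76 and 774 and 905 FPKM under DMSO, which overlap. UQCRHL, a near copy of UQCRH, had 32.2 and 43.3 FPKM against 92.2 and 57.7 (log2 -0.95, SE 0.26, adjusted p = 0.0273). Reads of these 2 genes could have been split between them by the counting, and UQCRHL lost its call without DMSO replicate 1 (adjusted p = 0.176) or TETi76 replicate 1 (adjusted p = 0.153).

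Complex IV had 3 of 13 tested genes lower (median -0.06). Its nuclear subunits are all supernumerary, since the catalytic core is mitochondrially encoded. COX5B had 484 and 487 FPKM under TETi76 and 659 and 621 under DMSO (log2 -0.40, SE 0.06, adjusted p = 0.00221). COX8A fell by 0.36 (SE 0.07) and COX7A2L by 0.45 (SE 0.07) on the log2 scale. COX4I1, the isoform of the regulatory subunit 4 found in most tissues, had 465 and 462 FPKM under TETi76 and 490 and 504 FPKM under DMSO (log2 -0.10, adjusted p = 0.228). COX7C, the most abundant, had 787 and 871 FPKM against 709 and 749 (log2 0.18, adjusted p = 0.147), without overlap. COX6B1, the usual form of subunit 6B, had 527 and 509 FPKM against 442 and 507 FPKM (log2 0.13, adjusted p = 0.358), and COX7A2, that of subunit 7A in non-muscle tissue, 213 and 195 FPKM against 178 and 227 (log2 0.02, adjusted p = 0.92). COX7B stood at log2 -0.20 (adjusted p = 0.0767) and COX6A1 at 0.10 (adjusted p = 0.331).

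Complex V had 9 of 17 genes lower (median -0.26). ATP5B, the catalytic beta subunit of the F1 head and the most abundant member, had 541 and 553 FPKM under TETi76 and 808 and 796 under DMSO (log2 -0.55, SE 0.04, adjusted p = 1.53e-05). ATP5D, of the central stalk, had 92.4 and 74.8 FPKM under TETi76 and 155 and 141 under DMSO (log2 -0.82, SE 0.13, adjusted p = 0.00207). Replicates agreed closely for ATP5B and less so for ATP5D, and neither gene overlapped between groups. ATP5F1, of the peripheral stalk, fell by 0.52 (SE 0.06) and ATP5A1, the alpha subunit, by 0.38 (SE 0.05) on the log2 scale. ATP5C1 (log2 -0.20, adjusted p = 0.0945) and ATP5E (log2 -0.04, adjusted p = 0.765) of the same F1 portion did not pass. The c-ring, which turns with the proton flow, is encoded by 3 genes for an identical mature protein. Of these, ATP5G1 (log2 -0.29, SE 0.09) and ATP5G3 (log2 -0.24, SE 0.06) fell, and ATP5G2, the most abundant of the 3, did not pass at 279 and 281 FPKM against 278 and 308 FPKM (log2 -0.07, adjusted p = 0.485). ATP5G1 lost its call in 4 of the 6 other settings (adjusted p up to 0.205) and in all 4 fits that left out a library (up to 0.228), and ATP5G3 under quantile normalization (0.084) and without DMSO replicate 1 (0.0791) or 2 (0.0663) or TETi76 replicate 1 (0.116).

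Core genes were taken as the catalytic subunits of complex I, the head of complex II, the carriers and core proteins of complex III and the F1 and c-ring subunits of complex V. This split is a convention that does not follow redox cofactors alone, and it was chosen with earlier results of these data known. It counts UQCRC1 and UQCRC2 as core and the anchors SDHC and SDHD as other. Over all complexes, 16 of 21 core genes were lower and 0 higher (median -0.47, limma, with 18 at an unadjusted p under 0.05). Of the 61 other tested genes, 16 were lower and 3 higher (median -0.08, with 26 at an unadjusted p under 0.05). Among all genes tested, 13.7% were lower, 9.61% were higher and 36.0% had an unadjusted p under 0.05. With NDUFA4 counted in complex IV and NDUFA4L2, COX7A2L, ATP5S and ATP5SL left out, the lower genes numbered 12 of 36 in complex I, 2 of 13 in complex IV and 9 of 15 in complex V. Length was taken as the median over a gene's annotated protein-coding transcripts, which need not be that of its main transcript. By this measure subunit transcripts were short, at a median of 715.75 nucleotides against 1727 for all genes tested. Across the 82 genes longer values went with lower changes (Spearman rho -0.33, a description across genes, against 0.05 for all genes tested). That rho was -0.04 for the subunit genes under TETi76 with ascorbate against ascorbate and 0.20 in SIGM5. GC content had rho -0.25 with the K01 change, against -0.04 for all genes. Under TETi76 with ascorbate against ascorbate it was -0.34, against -0.16 for all genes. In SIGM5 it was -0.14, against -0.13, and for K18 against K01 it was 0.24, against 0.17. The part of length in the core and accessory values was not tested.

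**Figure D2:**
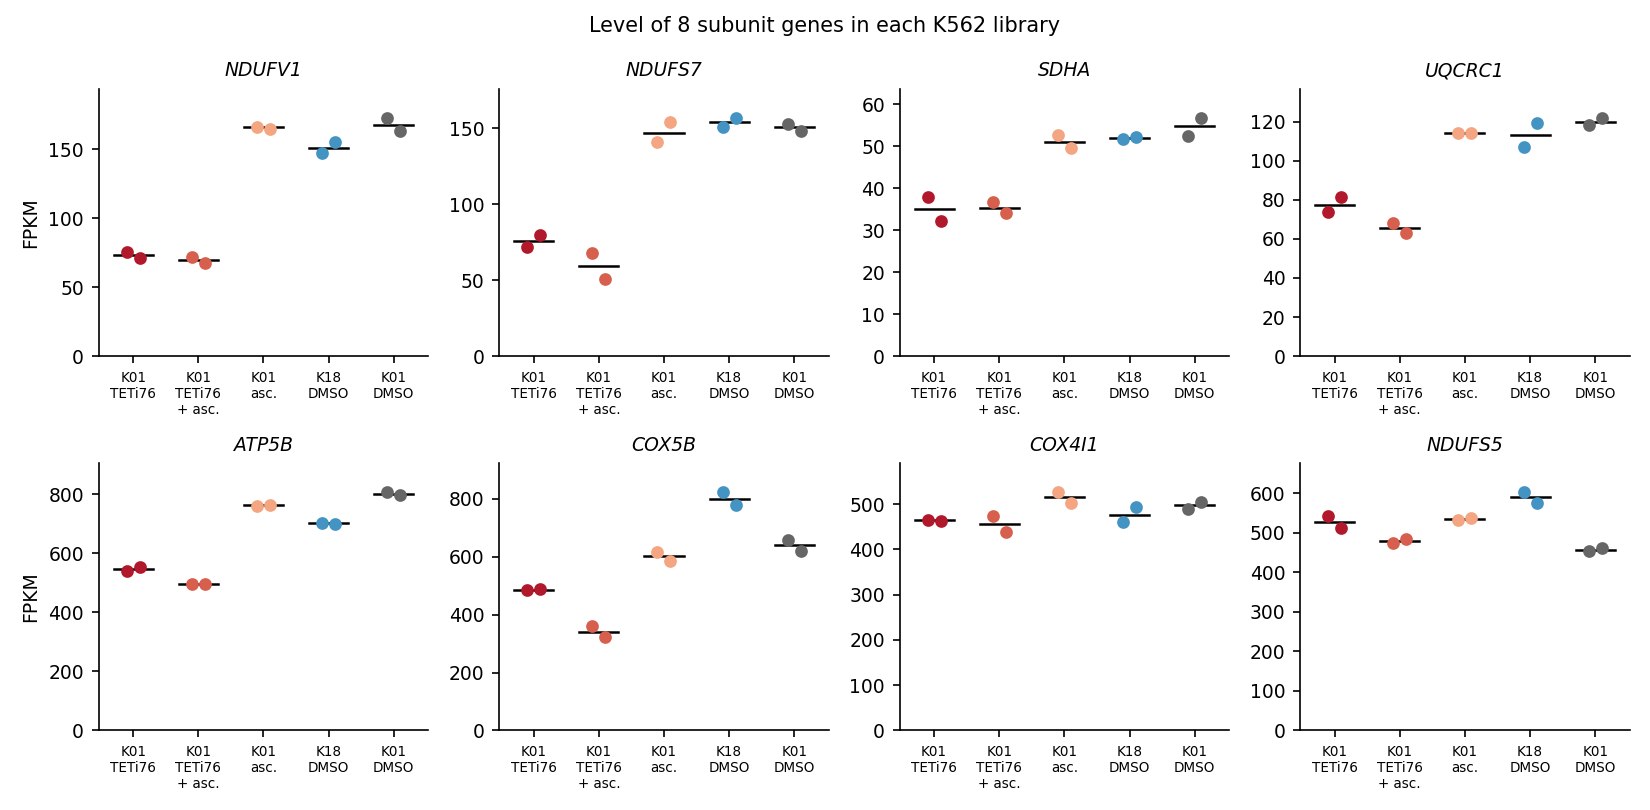
FPKM of 8 subunit genes in each of the 10 K562 libraries, from an axis starting at 0; points are libraries and short lines group means (2 libraries each). NDUFV1, NDUFS7, SDHA, UQCRC1 and ATP5B sit lower in the 4 libraries with TETi76 than in the 6 without it. COX4I1 differs less, and NDUFS5 is highest in K18 (604 and 576).

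TETi76 was also compared with its control in the presence of ascorbate, a reductant that supports the activity of the TET enzymes. In that setting 43 of 82 subunit genes were lower and 1 higher (median -0.29, against -0.01 for all genes), where 17.8% of all genes were lower and 12.9% higher, 30.7% in all. An unadjusted p under 0.05 was seen for 53, against 41.0%, and treated libraries lay below both of the others for 59, against 33.0%. The summed level was 14726 and 14651 FPKM with TETi76 and ascorbate and 18703 and 18892 with ascorbate alone, a ratio of 0.781. The ratio was 0.812 for complex I, 0.798 for II, 0.775 for III, 0.792 for IV and 0.741 for V. Lower genes numbered 15 of 38 in complex I, 2 of 4 in II, 7 of 10 in III, 7 of 13 in IV and 12 of 17 in V. Quantile normalization, which sets the libraries to a common distribution, gave 32 lower and 1 higher with a median of -0.14. The stromal or epithelial markers summed to 579 and 602 FPKM with both agents and 273 and 243 with ascorbate, again mostly KRT8 (541 and 561 against 222 and 197), and the erythroid markers to 6080 and 6510 FPKM against 8680 and 9050. Their part was not tested.

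Large decreases were again seen for NDUFS7, at 68.1 and 50.9 FPKM with TETi76 and ascorbate against 141 and 154 with ascorbate (log2 -1.31, SE 0.12, adjusted p = 6.73e-05), and NDUFV1, at 72.3 and 67.6 against 166 and 165 (log2 -1.23, SE 0.06). NDUFA7 fell by 1.09 (SE 0.18) and NDUFB8 by 1.04 (SE 0.08). ATP5D (log2 -1.17, SE 0.13), ATP5G1 (log2 -0.95, SE 0.09), UQCRHL (log2 -1.38, SE 0.26), UQCRC1 (log2 -0.79, SE 0.08), UQCRQ (log2 -0.69, SE 0.09), COX5B (log2 -0.82, SE 0.06) and COX8A (log2 -0.67, SE 0.07) fell as well, UQCRHL having the lowest value of the 82. COX5B had 361 and 322 FPKM with both agents and 618 and 585 with ascorbate. All of these had treated libraries below both ascorbate libraries. COX4I1 was called lower as well, at 474 and 439 FPKM against 527 and 503. That call was lost in most other settings, with log2 -0.07 (adjusted p = 0.437) under quantile normalization. In complex II, SDHD fell by 0.61 (SE 0.09) and SDHA by 0.52 (SE 0.09), and SDHB (log2 -0.18, adjusted p = 0.0687) and SDHC (log2 -0.04, adjusted p = 0.79) did not pass. All 3 c-ring genes were lower here, ATP5G2 by 0.31 (SE 0.06) and ATP5G3 by 0.36 (SE 0.06). The gene called higher was COX6B2, a testis form of subunit 6B, at only 1.08 and 1.21 FPKM against 0.092 and 0.394. It entered the test through these 2 treated libraries, so it had to differ. In limma the call was lost with a pseudocount of 0.1 (adjusted p = 0.0506) and with a replicate block (0.0598). It was also lost with only the groups compared (0.122), with quantile normalization (0.13) and without either ascorbate library.

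The 2 TETi76 comparisons of K01 share no library, but both were read from the same limma fit. Each gene therefore has the same variance estimate in both, and a low estimate makes a call easier in both. The shared calls below are thus not those of independent tests. Of the subunit genes, 29 were lower in both, 90.6% of the 32 lower without ascorbate and 67.4% of the 43 lower with it. For all genes the shares were 73.6% and 56.6%. The 29 comprised 11 genes of complex I, 2 of II, 5 of III, 3 of IV and 8 of V. Across the 82 genes the log2 changes correlated with Pearson r = 0.75 and Spearman rho = 0.76, a description across genes that are not independent, beside 0.68 and 0.65 for all genes tested.

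**Figure D3:**
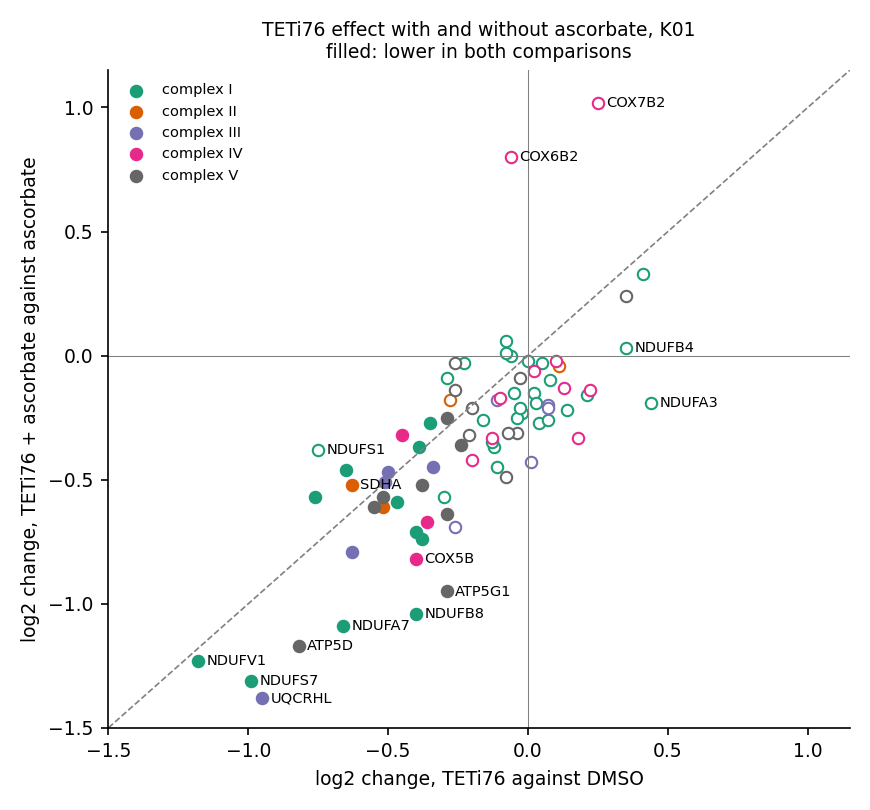
Log2 change of the 82 tested subunit genes under TETi76 without ascorbate (horizontal) and with ascorbate (vertical) in K01 cells, coloured by complex, with the dashed line marking equal values; filled points were lower in both comparisons. Of the 82 genes, 62 have the lower value with ascorbate, and COX7B2 and COX6B2, both at most 1.59 FPKM in the K01 libraries, stand apart at the top.

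Ascorbate alone moved few genes. Against DMSO, limma called 0 of 82 subunit genes, with 12 at an unadjusted p under 0.05 (median 0.04), where 0.479% of all genes were called, 0.168% higher and 0.311% lower, and 12% had an unadjusted p under 0.05. The smallest p-values belonged to NDUFB4 (248 and 226 FPKM with ascorbate, 167 and 186 with DMSO, log2 0.42, adjusted p = 0.0781) and NDUFA3 (193 and 200 FPKM against 140 and 128, log2 0.55, adjusted p = 0.0908). Both had been higher under TETi76 against the same DMSO libraries, and neither passed when TETi76 with ascorbate was set against ascorbate (log2 0.03, adjusted p = 0.828, and log2 -0.19, adjusted p = 0.227). NDUFS5, the third gene higher under TETi76 alone, was called lower in that setting, at 474 and 485 FPKM with both agents and 533 and 539 with ascorbate (log2 -0.16, adjusted p = 0.029), a call lost under quantile normalization (log2 -0.06, adjusted p = 0.429) and in each fit that left out a library of those groups (adjusted p up to 0.112). Summed FPKM of all 87 genes was 1.05 times the DMSO level.

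Adding ascorbate to TETi76 lowered 1 of 82 subunit genes relative to TETi76 alone, COX5B, at 361 and 322 FPKM with both agents against 484 and 487 FPKM with TETi76 (log2 -0.51, SE 0.06, adjusted p = 0.0127). Of all genes 0.734% were called, 0.487% lower and 0.247% higher, and 18 subunit genes had an unadjusted p under 0.05, against 14.6%. The call on COX5B was lost when only the 4 libraries compared were fitted (adjusted p = 0.104), and without TETi76 replicate 1 (0.101) or 2 (0.0932) or replicate 2 with both agents (0.0692). The interaction of the 2 agents was called for 1 gene, NDUFB8, an accessory subunit of the membrane arm, against 0.630% of all genes, 0.351% with a lower and 0.279% with a higher value. An unadjusted p under 0.05 was seen for 19 of the 82, against 13.6%. NDUFB8 had 112 and 109 FPKM with TETi76, 89.7 and 92.5 with both agents, 174 and 203 with ascorbate and 152 and 141 with DMSO. The TETi76 effect was log2 -1.04 with ascorbate and -0.40 without (difference -0.63, SE 0.11, adjusted p = 0.0473). This call was lost under 4 of the 6 alternative fits, with an adjusted p up to 0.0893, and in 7 of the 8 fits that left out a library, with an adjusted p up to 0.142. ATP5G1 (difference -0.67, adjusted p = 0.0528) and NDUFS5 (difference -0.37, adjusted p = 0.0509) lay just outside the threshold.

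Between the untreated clones, 5 of 82 subunit genes were higher and 6 lower in K18 than in K01 (median -0.07), where 15.0% of all genes differed, 6.85% higher and 8.20% lower. An unadjusted p under 0.05 was seen for 29 of the 82, against 29.4%. The share of subunit genes called was thus close to that of all genes. Summed FPKM was 17764 and 17362 in K18 and 17504 and 18204 in K01. By complex the ratio ranged from 0.928 for complex V to 1.03 for complex I. The 8 erythroid markers summed to 3880 and 3720 FPKM in K18 and 7320 and 8540 in K01, a difference mostly of HBE1, embryonic globin (1230 and 1250 against 4470 and 4790), while GATA1 (169 and 190 against 185 and 164) and TAL1 (28.4 and 29.2 against 28.3 and 31.1) overlapped. The 9 myelomonocytic markers summed to 57.5 and 64.6 FPKM against 68.7 and 59.5, with PTPRC, the leukocyte antigen CD45, at 0.0258 and 0.0452 FPKM in K18 and 15.9 and 14.5 in K01. The 4 stromal or epithelial markers summed to 138 and 142 FPKM against 238 and 237. The part of these markers in the subunit values was not tested.

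The genes higher in K18 were accessory or supernumerary: NDUFA3 (188 and 241 FPKM in K18, 140 and 128 in K01, log2 0.66, SE 0.11), NDUFS4 (64.5 and 54.5 against 37.7 and 45.5, log2 0.51, SE 0.14), NDUFS5 (log2 0.36, SE 0.05), NDUFC2 (log2 0.26, SE 0.07) and COX5B (824 and 778 against 659 and 621, log2 0.32, SE 0.06). Complex V held 4 of the 6 lower genes, ATP5F1 (216 and 205 FPKM in K18, 301 and 295 in K01, log2 -0.50, SE 0.06, adjusted p = 0.000432), ATP5H (log2 -0.37, SE 0.08), ATP5A1 (log2 -0.27, SE 0.05) and ATP5B (702 and 700 against 808 and 796, log2 -0.19, SE 0.04). NDUFS1 (log2 -0.47, SE 0.13) and COX7B (log2 -0.29, SE 0.07) were the others. Quantile normalization turned the split to 7 higher and 3 lower, with a median of 0.02. Each of these 11 except NDUFA3, NDUFS5, ATP5F1 and ATP5A1 lost its call when some single library was left out.

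Values in K18 of several genes that fell under TETi76 in K01 did not pass. NDUFV1 was at 147 and 155 FPKM in K18 against 173 and 163 in K01 (log2 -0.15, adjusted p = 0.143), and NDUFS7 at 151 and 157 against 153 and 148 (log2 0.03, adjusted p = 0.904). ATP5D (log2 -0.08, adjusted p = 0.728), SDHA (log2 -0.07, adjusted p = 0.688) and UQCRC1 (log2 -0.09, adjusted p = 0.5) likewise did not pass. Complex II and complex III had 0 calls by limma, with 0 and 2 genes at an unadjusted p under 0.05. The K18 comparison and the TETi76 comparison use the same K01 DMSO libraries, so their values are given side by side only: log2 -0.47 in K18 and -0.75 under TETi76 for NDUFS1, -0.50 and -0.52 for ATP5F1, and -0.19 and -0.55 for ATP5B.

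**Figure D4:**
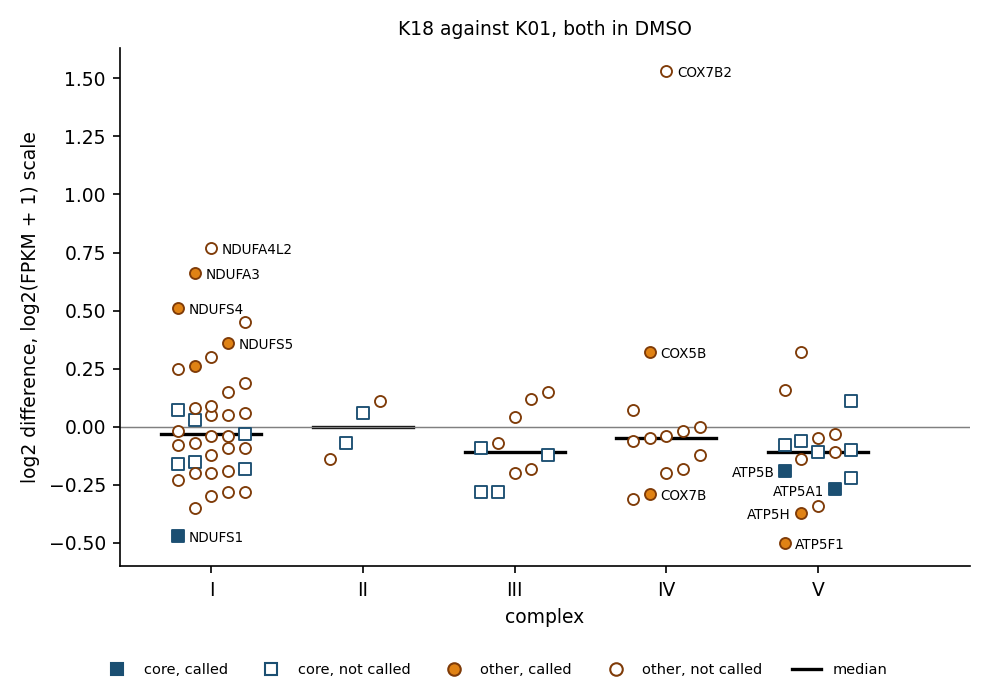
Log2 difference between K18 and K01 cells, both in DMSO, for each tested subunit gene by complex, on the log2(FPKM + 1) scale; symbols as in the key, bars are medians. NDUFA3 (0.66) is the highest called gene and ATP5F1 (-0.50) the lowest, while COX7B2, at most 3.78 FPKM in any library, lies at the top without a call.

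In SIGM5 cells TETi76 gave 1 lower and 0 higher of 63 tested subunit genes (edgeR, adjusted p under 0.05), where 1.54% of all 11340 genes were lower and 2.58% higher, 4.13% in all. The values nonetheless lay mostly below zero: 59 of 63 log2 changes were negative, with a median of -0.19 against 0.00 for all genes. Both treated libraries lay below both DMSO libraries for 40 of the 63, against 23% of all genes, and 23 of 63 had an unadjusted p under 0.05, against 16.7%. By complex the median was -0.18 for I, -0.11 for II, -0.15 for III and -0.23 for IV. Summed levels were 8808 and 9471 CPM under TETi76 and 10316 and 10443 CPM under DMSO, a quantity in which longer transcripts weigh more, since counts are not scaled by length.

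NDUFB8 was the gene called, at 166 and 194 CPM under TETi76 and 237 and 231 CPM under DMSO (log2 -0.38, SE 0.11, adjusted p = 0.0474). It lay just inside the threshold and lost its call with a filter of 1 CPM in 2 libraries (adjusted p = 0.0538) and without TETi76 replicate 1 (0.836) or 2 (0.152). COX7B (130 and 128 against 153 and 180 CPM, log2 -0.37, adjusted p = 0.0616), UQCRQ (29.7 and 46.2 against 60.9 and 57.6, log2 -0.64, adjusted p = 0.0754) and NDUFS5 (176 and 193 against 247 and 220, log2 -0.34, adjusted p = 0.0776) were next. SDHA was at 199 and 229 CPM under TETi76 and 266 and 268 under DMSO (log2 -0.32, adjusted p = 0.0987), NDUFV1 at 177 and 191 against 238 and 218 (log2 -0.31, adjusted p = 0.105). None of these 5 passed, although their groups did not overlap. The count of lower genes was 4 with DESeq2, and 9 and 12 without DMSO replicates 1 and 2, 0 and 3 without TETi76 replicates 1 and 2.

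The transcripts with most reads in SIGM5 included NDUFB9 in complex I, SDHA and SDHC in complex II, CYC1 and UQCRB in complex III and COX4I1 and COX7C in complex IV. COX4I1 had 487 and 526 CPM under TETi76 and 596 and 590 under DMSO. Tissue-restricted forms were scarce in both lines. COX4I2, COX6A2 and COX8C were listed at 0 in all 14 libraries, and COX7A1, the muscle form of subunit 7A, was at most 1.14 FPKM in K562 and 0.14 CPM in SIGM5. NDUFA4L2, in SIGM5, had 3.30 and 3.96 CPM under TETi76 and 6.5 and 4.42 CPM under DMSO.

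Whether the effect of TETi76 differed between the lines was tested gene by gene, on the 63 subunit genes tested in both. It differed for 12, 8 with a lower value in K01 and 4 with a higher one, against 12% of the 9742 genes tested in both, 7.12% and 4.91%. An unadjusted p under 0.05 was seen for 26, against 25.8%. The 8 included 6 core subunits: NDUFV1 (log2 -1.18 in K01, -0.31 in SIGM5, difference -0.87, SE 0.12), NDUFS8 (difference -0.77), NDUFS7 (difference -0.73), NDUFS1 (difference -0.61), UQCRC1 (log2 -0.63 in K01, -0.02 in SIGM5, difference -0.61) and CYC1 (difference -0.38). NDUFA11 (difference -0.56) and COX7A2L (difference -0.45) were the others. The 4 with a higher value in K01 were NDUFA3 (difference 0.67), NDUFS5 (log2 0.21 in K01, -0.34 in SIGM5, difference 0.55), COX7C (difference 0.48) and NDUFB4 (difference 0.40).

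The core genes tested in both lines had a median difference of -0.36 and the other subunits one of 0.16. Across the 63 genes the changes in the 2 lines were nearly uncorrelated (Pearson r = 0.09, Spearman rho = 0.02, a description across genes). The lines were deposited in different units and fitted separately, and the unit and line cannot be told apart in this difference. Without SIGM5 TETi76 replicate 1 the count of differing genes was 4, all lower in K01, without K01 DMSO replicate 1 it was 8, and without SIGM5 DMSO replicate 1 it was 16, with 8 in each direction. NDUFV1, NDUFS8 and UQCRC1 kept a call in all 8 such fits.

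**Figure D5:**
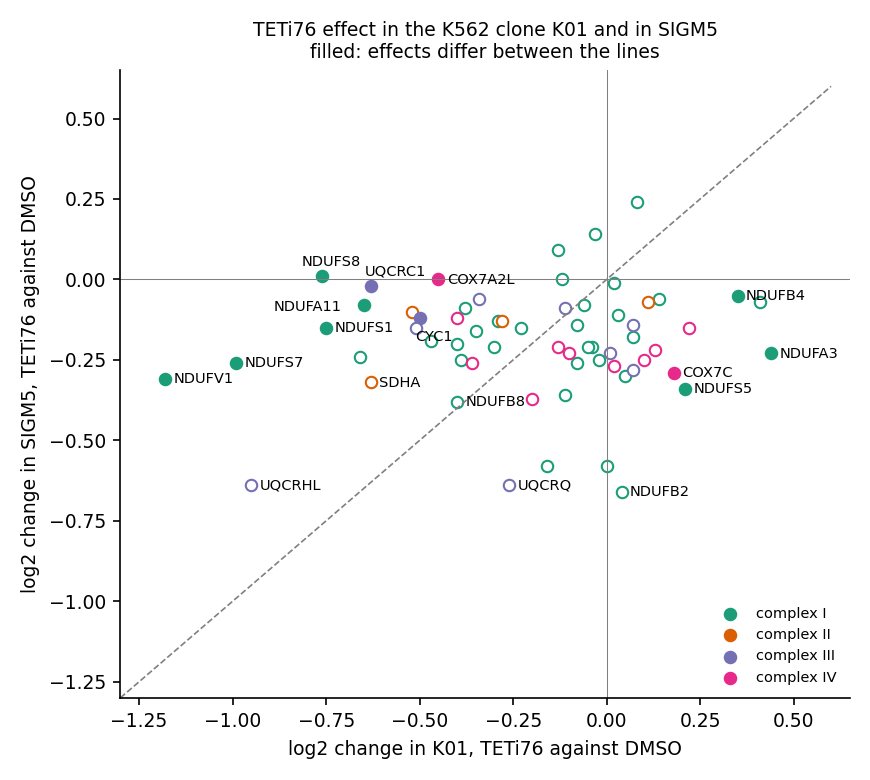
Log2 change under TETi76 in K01 (horizontal, log2(FPKM + 1) scale) and in SIGM5 (vertical, log2 of counts) for the 63 subunit genes of complexes I to IV tested in both; the dashed line marks equal values and filled points differ between the lines at an adjusted p of 0.05. The SIGM5 values span a narrow band mostly below zero (median -0.19), while in K01 they run from NDUFV1 at -1.18 to NDUFA3 at 0.44.

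Other genes of the pathway were read from a list of assembly factors, electron carriers, regulators and genes for the expression of mitochondrial DNA, of which 73 were tested in K562. Under TETi76 in K01, 15 were lower and 2 higher (median -0.15), or 20.5% and 2.74%, beside 13.7% and 9.61% of all genes. The lower ones included FOXRED1 (18.7 and 19.1 FPKM under TETi76, 34.6 and 29.3 under DMSO, log2 -0.73, SE 0.17) and NDUFAF3 (log2 -0.72, SE 0.15), which assemble complex I. TTC19, an assembly factor of complex III, fell by 0.71 (SE 0.14) on the log2 scale, and OXA1L, which inserts proteins into the inner membrane, by 0.59 (SE 0.13). Of 4 complex II assembly factors, SDHAF1 (log2 -0.50) and SDHAF3 (log2 -0.59) fell. ATPIF1, the inhibitor of the ATP synthase, had 290 and 286 FPKM under TETi76 and 425 and 454 under DMSO (log2 -0.61, SE 0.08). Among the 21 complex IV assembly factors 0 were lower by limma (3 genes at an unadjusted p under 0.05, either way) and COX17, a copper chaperone, was higher (121 and 110 FPKM against 67.8 and 87.8, log2 0.57, SE 0.16).

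Of 11 tested regulators, SP1 (log2 -0.64, SE 0.13), ESRRA, an oestrogen-related receptor of mitochondrial gene programmes (log2 -0.46, SE 0.12), and MYC (log2 -0.31, SE 0.06) fell, and PPRC1, a coactivator related to PGC-1, rose (15.6 and 15.3 FPKM against 9.11 and 8.82, log2 0.73, SE 0.16). Of factors whose motifs are given above, NRF1 (log2 -0.22, adjusted p = 0.475), GABPA (-0.15, adjusted p = 0.366) and YY1 (0.03, adjusted p = 0.847) did not pass. NFE2L2, whose product binds the antioxidant response element, did not pass either (log2 -0.20, adjusted p = 0.15). PPARGC1A, which encodes PGC-1 alpha, was listed at 0 in every library of both lines. Of the genes for mitochondrial DNA expression, LRPPRC (log2 -0.47, SE 0.07), TFB1M (log2 -0.65, SE 0.20) and POLRMT, the mitochondrial RNA polymerase (log2 -0.35, SE 0.09), fell, 3 of 11.

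With ascorbate present, 20 of the 73 were lower and 5 higher under TETi76, or 27.4% and 6.85%, beside 17.8% and 12.9% of all genes. FOXRED1 (log2 -1.0, SE 0.17), MYC (log2 -0.94, SE 0.06), SDHAF1 (log2 -0.89, SE 0.11) and ESRRA (log2 -0.84, SE 0.12) had the lowest values. NDUFAB1, the acyl carrier protein that is also a complex I subunit but falls outside the name rule, had 103 and 93.1 FPKM with TETi76 and ascorbate and 153 and 174 with ascorbate (log2 -0.73, SE 0.13). CYCS, cytochrome c, fell by 0.31 (SE 0.07). MYC was the gene of this list with a called interaction (difference -0.63, SE 0.08, adjusted p = 0.0173). Among higher genes, SDHAF4 had 4.90 and 4.62 FPKM against 1.25 and 0.00, and NDUFAF1 stood at log2 0.65 (SE 0.13). In SIGM5, 1 of 71 tested genes (1.41%, beside 1.54% of all genes) was lower, COA5 (28.8 and 31.0 CPM under TETi76, 38.1 and 45.1 under DMSO, log2 -0.48, SE 0.13). In K18, 3 of 73 were higher (4.11%, beside 6.85% of all genes) and 2 lower (2.74%, beside 8.20%).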

How the data were processed

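The authors deposited a table of raw counts per gene for the 4 SIGM5 libraries and a table of FPKM values for the 10 K562 libraries, with 2 libraries in each of 7 groups. Per the submitters' processing notes the tools included STAR, edgeR 3.24.3 and limma 3.38.3, and the genome build was hg19; which tool made which table is not given in the sources used here. For SIGM5, edgeR 4.0.16 was run on the counts (TMM scaling, filterByExpr, quasi-likelihood test), and CPM values were computed from them. A count test had been planned for K562 should its table hold counts; because it holds FPKM, limma 3.58.1 (trend, robust) was used on log2(FPKM + 1), over all 10 libraries, for genes at 1 FPKM or more in at least 2 libraries. Fold changes on that scale understate the change of low genes.

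From the K562 data, 26 unnamed entries and 2272 short-RNA entries were left out. The latter held 35.6% to 40.2% of the FPKM sum of a library. That sum, with all entries, ran from 755857 (K18 replicate 2) to 868586 (K01 ascorbate replicate 2). The summed levels of the subunit genes and their ratios were not scaled to it. P-values were two-sided and adjusted by Benjamini-Hochberg over all genes tested, 12534 in K562, 11340 in SIGM5 and 9742 for the difference between the lines. That difference was tested as the difference of the 2 separately fitted effects over their joint standard error. K562 depth was estimated from the steps between low FPKM values, of which 91.5% of 1924 were whole reads within 0.02 read, over 411 genes. The lowest value of each gene set its step, so that value is whole by construction. The absolute read numbers rest on 20 single-transcript genes. The depth estimate is approximate, and the lowest library had 0.525 times the depth of the highest, so small changes in low genes are less certain there. Replicates correlated with r of at least 0.9761 in K562 and 0.9901 in SIGM5. The tests were checked on simulated data. There limma recovered 50% of 100 genes changed 1.5-fold and 82% of 100 changed 2-fold, among 8305 genes. For edgeR the shares were 81% and 98%, each of 100 genes, among 10580. Of the calls made there, 3.6% were false for limma and 3.2% for edgeR. The 2 checks differed in genes and units, so the shares do not compare the sensitivity of the tests. Whether the shares hold for the deposited libraries was not tested. A gene that did not pass may therefore still have changed.

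The genes, the pathway list and the split into core and other subunits were chosen with earlier results of these data known. The text names all SDH genes, sets of alternative isoforms, up to 4 called genes per complex and direction with the largest change, the 2 most abundant per complex and line, and up to 4 called pathway genes per direction; other genes were named after their values were seen. Alternatives tried were DESeq2 1.42.0, other scalings, filters, a pseudocount of 0.1, separate fits of the groups compared, a replicate block and leaving out each library. Promoter windows came from RefSeq on GRCh38.p14. A result that these rules would name is not reported here.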

Additional observations from a re-analysis of the deposited data

Results flagged for a closer look

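The effect of TETi76 differed between K01 and SIGM5 by a test of the difference itself for 12 subunit genes (adjusted p under 0.05 over 9742 genes). In log2 units, K01 minus SIGM5, the difference was -0.87 for NDUFV1, -0.77 for NDUFS8, -0.73 for NDUFS7, -0.61 for NDUFS1, -0.61 for UQCRC1, -0.56 for NDUFA11, -0.45 for COX7A2L and -0.38 for CYC1. It was 0.67 for NDUFA3, 0.55 for NDUFS5, 0.48 for COX7C and 0.40 for NDUFB4. Both SIGM5 and K01 values were below zero for NDUFV1, whereas NDUFS5 was higher in K01 (log2 0.21) and at -0.34 in SIGM5, where it did not pass. The effect of TETi76 on NDUFB8 in K01 cells differed with and without ascorbate, by an interaction of -0.63, a call lost in 4 of the 6 other settings (adjusted p up to 0.0893) and in 7 of the 8 fits that left out a library (up to 0.142).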

How the results depend on the processing

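In K01 cells the count of subunit genes called under TETi76 was 24 to 27 when single libraries were left out, against 35 with all, and with ascorbate present 36 to 38, against 44. Of the 32 genes lower without ascorbate, 20 stayed called in all 6 other settings and 19 in all 4 fits that left out a library; of the 43 lower with ascorbate, 32 and 31 did. Other counts moved more. In SIGM5 the count of 1 became 4 with DESeq2, 7 with no filter, 0 with a filter of 1 CPM in 2 libraries, 0 without scaling factors and 0 to 12 when single libraries were left out (9 and 12 without DMSO replicates 1 and 2, 0 and 3 without TETi76 replicates 1 and 2). Between K18 and K01 the count of 11 became 7 with no filter and 17 with only those groups fitted, and 5 to 7 when single libraries were left out (7 and 6 without K01 replicates 1 and 2, 6 and 5 without K18 replicates 1 and 2). For TETi76 with ascorbate against TETi76, the count of 1 became 0 with only those groups fitted and 0 to 2 when single libraries were left out. The interaction count of 1 became 0 with no filter, 0 with quantile normalization, 0 with only those groups fitted and 0 to 2 when single libraries were left out. The count of genes that differed between the lines was 4 to 16 when single libraries were left out, 4 of them without SIGM5 TETi76 replicate 1, and 12 with all. Ascorbate alone gave 0 in every setting run. The causes were not tested.

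Replicate numbers did not pair the libraries: deviations of same-numbered libraries correlated at -0.164 in SIGM5 and between -0.023 and 0.051 in K562. With the replicate number as a block the count was 3 in SIGM5, 32 for TETi76 in K01, 42 with ascorbate, 10 for K18 against K01, 11 for the difference between the lines and 0 for the interaction. With the SIGM5 numbers crossed, a pairing chosen after seeing the data, it was 15. With 2 libraries a group and K562 depths of 4860000 to 9250000 reads, small changes of low genes were not detectable.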
